A study of Mus musculus with 6 samples.

Results

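The genes described here are 10 that encode RNA-binding proteins of neurons and glia, *Ralyl*, *Rbfox1*, *Rbfox3*, *Celf2*, *Celf4*, *Nova1*, *Nova2*, *Elavl2*, *Elavl4* and *Qk*, read by gene symbol in the nuclear RNA of the mouse cerebellum. All 10 were present in the count tables, which hold 32286 genes, and their unique molecular identifiers (UMIs, one per captured RNA molecule) were summed per mouse and cell type label. Proteins of this kind bind short motifs in pre-mRNA and mRNA and set which exons are kept, how stable a transcript is and where it is translated. Neurons and glia carry different sets of them, so that one gene can yield different transcripts in neighbouring cells. In the cerebellum the cell types differ widely in size and number, from the very many small granule neurons to the few large Purkinje cells (PCs), which send the only output of the cerebellar cortex.

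The nuclei came from 6 mice of 12 weeks, with 1 library per mouse, 3 wild type (WT) and 3 SCA1. The SCA1 mice were the *Pcp2-ATXN1[82Q]* line, in which the *Pcp2* promoter, active in PCs, drives human *ATXN1* with an expanded CAG repeat, as a model of spinocerebellar ataxia type 1. The WT mice carried no transgene. Since the transgene is driven in PCs, a difference in another cell type is not one in cells that were meant to carry it.

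Together the libraries held 45473 nuclei and between 18916647 and 98366627 UMIs each, with a median of 2246.5 to 7253 UMIs per nucleus, and any 2 libraries shared 7 to 44 cell barcodes. The deposited labels name 24 cell types, of which 13 had at least 10 nuclei in every mouse and were used, with 45042 nuclei. They held 37532 granule neuron, 1384 oligodendrocyte (OL), 1243 Bergmann glia (BG), 1014 velate astrocyte (VA) and 292 PC nuclei. PC nuclei numbered 65, 52 and 29 in SCA1 mice 1 to 3, and 76, 41 and 29 in WT mice 1 to 3. The other labels were 5 of inhibitory interneurons, named for *Nefh*, *Rab3b*, *Chrm2*, *Cadm1* and *Lgi2*, a pair of excitatory neurons, named for *Nrgn* and *Sln*, and a vascular one named for *Dcn* and *Nnat*. The defining markers were highest in their own label for 6 of 6 in PC, 4 of 4 in BG, 4 of 4 in OL, 4 of 5 in granule neurons (*Slc17a7* was highest in *Sln*) and 3 of 4 in VA (*Gjb6* was highest in *Dcn-Nnat*). Of the markers of oligodendrocyte precursors, *Cspg4* was highest in OL, *Pdgfra* in *Dcn-Nnat* and *Vcan* in VA. The OL label held 32.5, 69.4 and 191 CPM of these 3, and whether it includes precursor nuclei was not tested. The *Lgi2* label was highest for the Golgi cell markers *Lgi2*, *Slc6a5* and *Grm2*, and the *Sln* label for *Eomes* and *Lmx1a* of unipolar brush cells. The *Dcn-Nnat* label, named endothelial by the study, was highest for the fibroblast-like markers *Dcn* and *Col1a2*. It was also highest for the endothelial marker *Flt1* and the mural markers *Vtn* and *Pdgfrb*, but not for the endothelial *Cldn5* and *Pecam1* or the mural *Rgs5*. In most labels nearly all nuclei lay in a cluster where their own label was the most frequent, but in *Lgi2* these were 115 of 240 nuclei, in *Chrm2* 38 of 263 and in *Rab3b* 0 of 458, so the levels of these 3 labels rest on the label alone. UMIs of human *ATXN1* were found in all SCA1 libraries, with 57, 60 and 60, of which 12, 15 and 19 lay in PC nuclei. The WT libraries held 37, 17 and 15 such UMIs, with 0 in PC nuclei.

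Levels are UMIs per 1000000 of the label in a mouse (CPM), scaled within the label between mice by the trimmed mean of M values (TMM), and errors are the SD over 6 mice unless another number is given. A log2 difference from granule neurons is the coefficient of an edgeR quasi-likelihood fit over all 13 labels with the mouse as a term, ± its standard error (SE), and its p-value is adjusted over 13286 genes. The fit also scales between labels by TMM, which CPM does not, so the order of labels with close levels can differ between CPM and the fit. Neighbours in the order of levels were compared by the exact sign-flip permutation test over the 6 mice. Its smallest p is 0.03125, and after adjustment over the 12 neighbour pairs of a gene no pair passed, so the text gives the number of mice in which 1 label lay above the next.

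**Figure D1:**
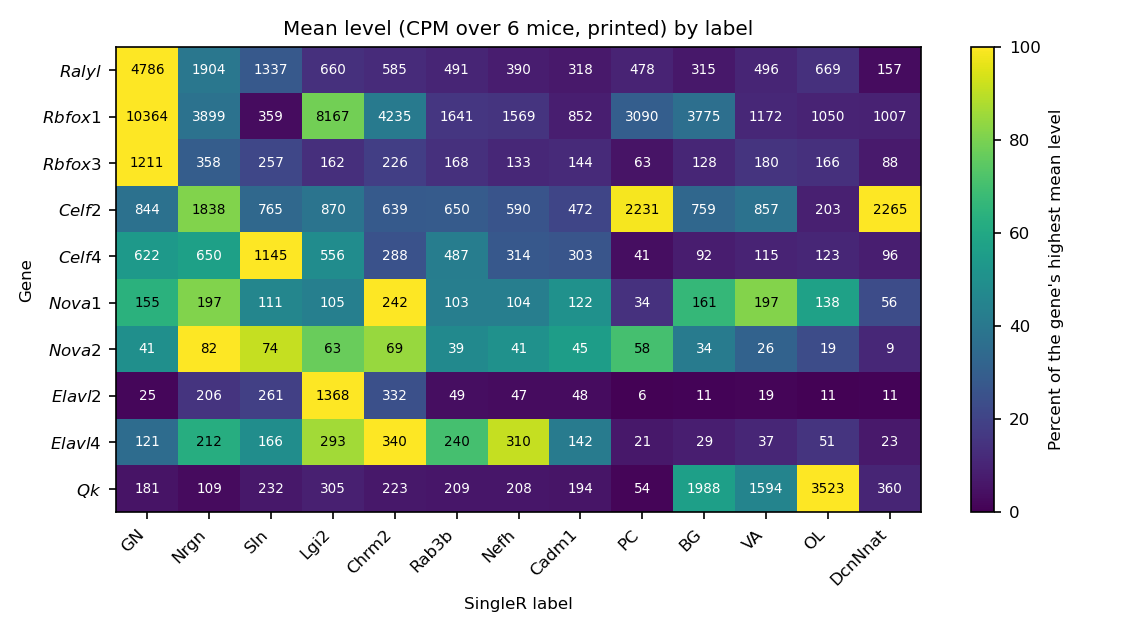
Mean level of each of the 10 genes (rows) in each of the 13 labels (columns), in CPM over 6 mice, with the colour giving the percent of that gene's own highest label. *Ralyl*, *Rbfox1* and *Rbfox3* had their highest mean in granule neurons (GN on the axis), *Qk* in OLs, *Elavl2* in the *Lgi2* label, and 6 genes had their lowest mean CPM in PCs.

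*Ralyl* encodes a relative of the RALY and hnRNP C proteins, which coat nascent RNA in the nucleus. The gene lies on chromosome 3 from 13471655 to 14182287 on the plus strand (GRCm38), and a gene on the opposite strand, *Gm2464*, lies within the same interval. Granule neurons had its highest level by CPM, 4786 ± 1572, with a lowest, median and highest mouse of 3225, 4200 and 7097 CPM. The *Nrgn* label followed with 1904 ± 514 CPM and the *Sln* label with 1337 ± 276 CPM. Each of these steps, and that from *Sln* to OLs with 669 ± 114 CPM, was seen in 6 of 6 mice, so the 3 excitatory labels stood above the other 10. By mean UMIs per nucleus, which also follow how much RNA a nucleus yields, *Nrgn* was above granule neurons, with 40.9 ± 15.3 against 29.6 ± 12.1. Relative to granule neurons the log2 difference was -1.38 ± 0.27 in *Nrgn* (adjusted p = 9.25e-06) and -2.10 ± 0.28 in *Sln* (adjusted p = 4.15e-09). From OLs down to BG, with 315 ± 108 CPM, no neighbours differed in all 6 mice. This middle group held all 5 interneuron labels, from 660 ± 279 CPM in *Lgi2* to 318 ± 217 CPM in *Cadm1*, and the PCs with 478 ± 136 CPM. PCs lay 2.91 ± 0.29 below granule neurons on the log2 scale (adjusted p = 1.42e-14). The lowest level, 157 ± 95.5 CPM, was that of the *Dcn-Nnat* label, 30.4-fold under the granule neuron mean.

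In granule neurons the spread of *Ralyl* between mice followed the mouse number more than the genotype. The SCA1 mice had 3650, 4496 and 7097 CPM, and the WT mice had 3225, 3903 and 6343 CPM. The third mouse was the highest and the first the lowest in both genotypes, and the groups overlapped. Within each same-numbered pair the SCA1 mouse was the higher, as picked out from the values, in 3 of 3, and the log2 change was 0.18 ± 0.42 without the replicate number as a block and 0.18 ± 0.09 with it (adjusted p = 1.00 and 0.881).

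**Figure D2:**
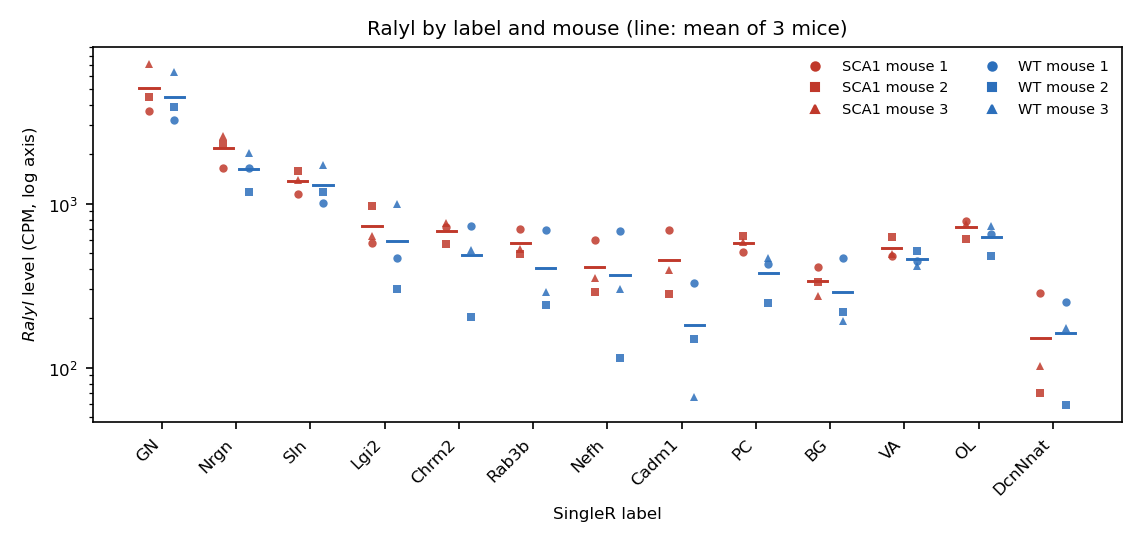
Level of *Ralyl* in CPM (log axis) in each of the 13 labels, with a point per mouse, SCA1 and WT apart, and a line at the mean of 3 mice. The granule neuron (GN on the axis), *Nrgn* and *Sln* labels stand above all others in both genotypes, and the SCA1 points lie above the WT points without overlap in PCs.

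The 3 Rbfox proteins are splicing regulators that share almost the same RNA-binding domain, and Rbfox3 is the antigen known as NeuN, widely used to stain neuronal nuclei, a stain that PCs lack. *Rbfox1*, on chromosome 16 from 5885355 to 7411526 on the plus strand, had its highest mean in granule neurons, 10364 ± 3608 CPM, and the *Lgi2* label, 8167 ± 2025 CPM, did not differ from granule neurons in the fit, at -0.36 ± 0.30 (adjusted p = 0.33). The step from *Lgi2* to *Chrm2*, with 4235 ± 1263 CPM, was seen in 6 of 6 mice. BG and PCs, low in *Ralyl*, still held 3775 ± 1321 and 3090 ± 1033 CPM of *Rbfox1*, or -1.40 ± 0.31 and -1.26 ± 0.31 relative to granule neurons on the log2 scale. The other interneuron labels, VAs, OLs and *Dcn-Nnat* followed between 1641 and 852 CPM. The *Sln* label, which was among the highest for *Ralyl*, was the lowest for *Rbfox1*, with 359 ± 389 CPM and -5.19 ± 0.38 relative to granule neurons (adjusted p = 9.34e-20), and its mice ranged from 16.5 to 891 CPM.

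*Rbfox3*, on chromosome 11 from 118489762 to 118911597 on the minus strand, was also highest in granule neurons, with a lowest, median and highest mouse of 738, 1247 and 1571 CPM. The next label, *Nrgn* with 358 ± 61.5 CPM, lay below granule neurons in 6 of 6 mice. The other labels ranged from 257 ± 89.7 CPM in *Sln* to 88.1 ± 69.1 CPM in *Dcn-Nnat*, with few steps between them beyond the spread. PCs had the lowest mean CPM, with a lowest, median and highest mouse of 11.7, 56.3 and 121 CPM, and lay 3.93 ± 0.30 below granule neurons on the log2 scale (adjusted p = 8.65e-20). The step in CPM from *Dcn-Nnat* down to PCs was seen in 5 of 6 mice, but in the fit *Dcn-Nnat* was the lower of the pair, at -4.21 ± 0.32, so their order was not resolved. The related *Rbfox2* went the other way, with 498 ± 78.0 CPM in PCs and 373 ± 108 CPM in granule neurons, or 0.94 ± 0.09 higher in PCs on the log2 scale (adjusted p = 9.44e-15). So among the 3 Rbfox genes PCs were below granule neurons for *Rbfox1* and *Rbfox3* and above them for *Rbfox2*.

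CELF proteins bind GU-rich RNA and act on splicing in the nucleus and on translation and decay in the cytoplasm. *Celf2*, on chromosome 2 from 6539694 to 7509563 on the minus strand, was the member most raised in PCs, with a lowest, median and highest mouse of 1868, 2179 and 2704 CPM against 683, 754 and 1147 CPM in granule neurons. The 2 ranges did not overlap, and the log2 difference was 1.90 ± 0.13 (adjusted p = 2.35e-22). The *Dcn-Nnat* label, 2265 ± 534 CPM, lay above PCs in 4 of 6 mice by CPM, while in the fit PCs were highest and *Dcn-Nnat* was at 1.15 ± 0.13 relative to granule neurons. *Nrgn*, with 1838 ± 352 CPM, lay below PCs and above the next label, *Lgi2*, in 6 of 6 mice. Granule neurons, VAs, BG and the *Lgi2* label lay close together, between 759 and 870 CPM, and none of the other 3 differed from granule neurons (adjusted p = 0.501 to 0.887). OLs stood at the bottom with 203 ± 43.8 CPM, -2.03 ± 0.13 relative to granule neurons (adjusted p = 3.08e-23).

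*Celf4*, on chromosome 18, had nearly the reverse standing in PCs. It was highest in the *Sln* label, where the 6 mice had a lowest, median and highest value of 1091, 1147 and 1204 CPM, above *Nrgn* in 6 of 6 mice and 0.63 ± 0.24 above granule neurons on the log2 scale (adjusted p = 0.0365). Among *Nrgn*, granule neurons, *Lgi2* and *Rab3b*, from 650 ± 110 to 487 ± 85.1 CPM, no step between neighbours was seen in 6 of 6 mice. *Rab3b* was below granule neurons in each mouse, at 91.4% of their level or less, but was not called in the fit (-0.49 ± 0.23, adjusted p = 0.0984). *Nefh*, *Cadm1* and *Chrm2* followed between 314 and 288 CPM, and OLs, VAs, *Dcn-Nnat* and BG between 123 and 92.4 CPM. PCs had the lowest mean, 41.2 ± 26.3 CPM, or -3.50 ± 0.27 relative to granule neurons (adjusted p = 1.87e-19). Within the CELF family, then, PCs held more *Celf2* and less *Celf4* than granule neurons, and of the others *Celf5* was lower by -2.35 ± 0.25 (adjusted p = 2.04e-13) and *Celf1* by -0.43 ± 0.10 (adjusted p = 9.71e-05), while *Celf3* and *Celf6* did not differ (adjusted p = 0.785 and 0.964).

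Nova proteins are neuronal KH-domain splicing factors and the targets of autoantibodies in a paraneoplastic disorder of movement. *Nova1*, on chromosome 12 from 46694517 to 46818929 on the minus strand, was the member with the flattest profile, 7.07-fold from the highest to the lowest label. *Chrm2* had the highest mean, 242 ± 34.8 CPM, or 0.56 ± 0.15 above granule neurons (adjusted p = 0.00104). Glia were not set apart from neurons for this gene, with 197 ± 43.0 CPM in VAs, 161 ± 34.3 CPM in BG and 138 ± 22.2 CPM in OLs, none of which differed from the 155 ± 32.2 CPM of granule neurons (adjusted p = 0.131, 0.584 and 0.281). PCs had the lowest mean CPM, 34.2 ± 10.8, and were at -1.65 ± 0.16 relative to granule neurons (adjusted p = 1.45e-14), level with *Dcn-Nnat* in the fit (-1.66 ± 0.19). *Nova2*, on chromosome 7 from 18925888 to 18965319 on the plus strand, had low levels throughout, with its highest mean in *Nrgn*, 81.5 ± 20.9 CPM. It was higher in PCs than in granule neurons, 57.5 ± 8.35 against 40.6 ± 6.63 CPM, or 0.99 ± 0.15 on the log2 scale (adjusted p = 1.25e-08). VAs and OLs were below granule neurons by -0.77 ± 0.17 and -1.03 ± 0.17, and *Dcn-Nnat* was lowest with 9.1 ± 5.92 CPM. The 2 Nova genes therefore differed from granule neurons in opposite directions in PCs, as *Celf2* and *Celf4* did.

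Elavl proteins, also called Hu proteins, bind AU-rich stretches in transcripts and are used as early markers of neurons, *Elavl2* encoding HuB and *Elavl4* encoding HuD. *Elavl2*, on chromosome 4 from 91250763 to 91400785 on the minus strand, had the steepest profile of the 10 genes by mean CPM, 212-fold from the *Lgi2* label to PCs and 129-fold from *Lgi2* to OLs. The PC mean rests on WT mouse 1, with 75 of the 98 UMIs and 22.6 CPM against 1.17 to 6.22 CPM in the other 5 mice, and is 3.22 CPM without it. The *Lgi2* label, the one with the Golgi cell markers, had a lowest, median and highest mouse of 970, 1223 and 1912 CPM, above *Chrm2* in 6 of 6 mice, and lay 5.75 ± 0.29 above granule neurons on the log2 scale (adjusted p = 1.42e-28). *Chrm2*, *Sln* and *Nrgn* formed a second level, from 332 ± 77.2 to 206 ± 86.3 CPM, each above granule neurons. The *Rab3b*, *Cadm1* and *Nefh* labels had 48.5, 47.6 and 46.9 CPM and granule neurons 24.5 ± 2.74 CPM. PCs and OLs were near the limit of counting, with 6.4 ± 8.14 and 10.6 ± 7.69 CPM, and the fewest UMIs in a mouse were 1 and 0, so that their order was not detectable at this depth.

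*Elavl4*, also on chromosome 4, from 110203722 to 110351909 on the minus strand, separated the neuronal labels other than PCs from glia. Its level ran from 340 ± 56.4 CPM in *Chrm2*, 311 ± 88.1 CPM in *Nefh* and 293 ± 45.1 CPM in *Lgi2* down to 121 ± 21.1 CPM in granule neurons, and granule neurons lay above OLs, with 50.6 ± 15.0 CPM, in 6 of 6 mice. VAs, BG and *Dcn-Nnat* had 37.0, 29.1 and 23.2 CPM. PCs, with 21.4 ± 16.4 CPM, had the lowest mean CPM and lay 1.85 ± 0.27 below granule neurons on the log2 scale (adjusted p = 8.39e-09), while *Dcn-Nnat* was lower in the fit, at -2.46 ± 0.35. *Elavl3*, the HuC gene, did not follow this order, as it was not different between PCs and granule neurons, 241 ± 40.2 and 304 ± 52.2 CPM (log2 difference 0.16 ± 0.16, adjusted p = 0.383).

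*Qk* encodes quaking, a KH-domain protein known for its role in myelin formation and in the splicing and transport of myelin transcripts. The gene is on chromosome 17, from 10202601 to 10319854 on the minus strand. It was the member with its highest levels in glia. OLs had a lowest, median and highest mouse of 2196, 3639 and 4596 CPM, BG of 1096, 2097 and 2690 CPM, and VAs of 1057, 1557 and 2033 CPM. All 3 glial labels lay far above every neuronal label, and OLs were above BG, BG above VAs and VAs above the next label in 6 of 6 mice. Relative to granule neurons, with 181 ± 16.0 CPM, the log2 differences were 4.22 ± 0.17, 3.46 ± 0.17 and 3.04 ± 0.17 (adjusted p = 1.39e-33, 1.14e-29 and 6.68e-27). The *Dcn-Nnat* and *Lgi2* labels were somewhat above granule neurons, by 0.69 ± 0.16 and 0.68 ± 0.16. The remaining interneuron labels and *Sln* lay between 194 and 232 CPM and did not differ from granule neurons (adjusted p = 0.495 to 0.992). Both neuronal labels under granule neurons were set apart from it in 6 of 6 mice, *Nrgn* with 109 ± 36.7 CPM and PCs with 54.2 ± 17.1 CPM, the latter 65.0-fold under OLs.

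**Figure D3:**
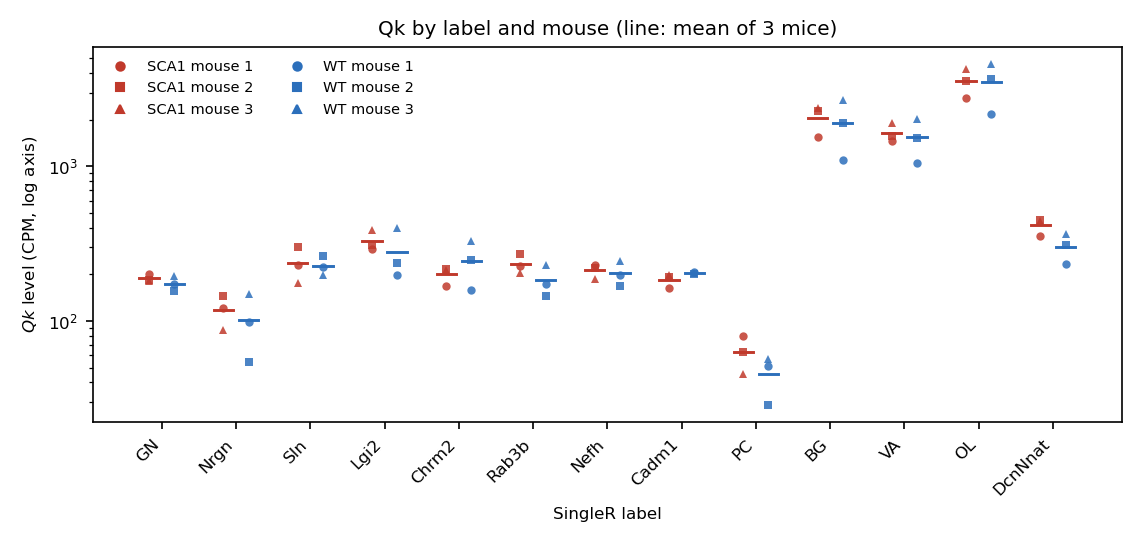
Level of *Qk* in CPM (log axis) in each of the 13 labels, with a point per mouse, SCA1 and WT apart, and a line at the mean of 3 mice. OLs, BG and VAs lie above all neuronal labels, PCs are lowest, and the genotypes overlap in each of the 3 glial labels.

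Longer genes can yield more unspliced nuclear RNA, so levels of different genes were set beside each other after division by length. How closely UMIs follow length was not tested. On the scale of CPM per kb of the gene's interval, with lengths from 39.4 kb for *Nova2* to 1526 kb for *Rbfox1*, the granule neuron level was 6.79 for *Rbfox1*, 6.73 for *Ralyl*, 2.87 for *Rbfox3*, 2.25 for *Celf4* and 1.55 for *Qk*, and 0.163 for *Elavl2*. On the same scale the PC level was 2.30 for *Celf2*, 2.02 for *Rbfox1* and 1.46 for *Nova2*, and no more than 0.672 for the other 7. OLs reached 30.0 CPM per kb for *Qk* and the *Lgi2* label 9.12 for *Elavl2*. Without this division, by CPM, PCs had more *Rbfox1* (3090) than *Celf2* (2231). Per kb, granule neurons were led by *Rbfox1* and *Ralyl* among the 10 genes, PCs by *Celf2* and *Rbfox1*, and OLs by *Qk*. The related *Elavl3* was above these in granule neurons, with 8.21, and in PCs, with 6.52, and *Celf1* had 2.42 in PCs.

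Counted over the 10 genes, PCs were higher than granule neurons for 2, *Celf2* and *Nova2*, and lower for 8. In the same fit 30.1% of all genes tested were higher and 33.0% lower in PCs, and the median log2 difference was -1.46 for the members and -0.08 for all genes. Of the 10 members 6 had their lowest mean CPM of all 13 labels in PCs, namely *Rbfox3*, *Celf4*, *Nova1*, *Elavl2*, *Elavl4* and *Qk*. In the fit, which scales between labels, PCs were lowest for 2 of these, *Celf4* and *Qk*, and *Dcn-Nnat* for the other 4. When libraries were scaled by their size alone, the median of all genes moved to -0.55, and the same 2 members were higher and 8 lower. In the glial labels *Qk* alone was called higher than in granule neurons, and 6 members were lower in BG (27.1% of all genes were higher and 31.7% lower), 6 in VAs (25.6% and 29.6%) and 8 in OLs (24.3% and 27.4%). In the *Dcn-Nnat* label 2 members were higher and 8 lower (24.6% and 31.0%). Among interneurons, *Lgi2* had 4 higher and 3 lower (26.2% and 28.1%), *Chrm2* 4 and 5 (25.6% and 27.3%), *Nefh* 2 and 6 (21.5% and 25.8%), *Rab3b* 2 and 5 (16.0% and 19.8%) and *Cadm1* 1 and 6 (17.9% and 21.5%). Of the excitatory labels, *Nrgn* had 5 higher and 4 lower (28.6% and 30.2%) and *Sln* 3 and 5 (11% and 16.8%), the 8 calls in *Sln* becoming 5 with the third WT mouse left out. *Nrgn* was the label with the most members above granule neurons, and the only one of the 12 whose member median, 0.20, was above 0.

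The list of 41 other genes for RNA-binding proteins, which hold among others the Ptbp, Mbnl, Cpeb, Pum and hnRNP families, had 40 tested in this fit. In PCs 15 of them were higher and 16 lower than in granule neurons, with a median of -0.04. In BG and VAs 8 were higher and 22 lower, and in OLs 10 were higher and 14 lower. *Raly*, the nearest relative of *Ralyl* on the list, was low in all cells, with 26.9 ± 9.36 CPM in granule neurons and 11.7 ± 4.85 CPM in PCs (-0.81 ± 0.17, adjusted p = 2.44e-05).

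Free RNA of the abundant granule neurons is read in other nuclei of droplet libraries, so the members' levels were set beside those of the granule neuron markers *Gabra6*, *Fat2*, *Cbln3* and *Slc17a7*, each as a percent of its own granule neuron level. In PCs these markers had means of 4.29% to 10.0%. *Rbfox3*, with 5.29%, and *Celf4*, with 6.51%, lay inside that range, so on this scale they were not above the granule neuron markers there. *Ralyl*, with 10.5% ± 3.57, had a mean just above it, but its lowest mouse, with 6.35%, lay inside it, so *Ralyl* was not set apart from it. *Rbfox1*, *Nova1* and *Qk* were at 22.8% to 30.3%. *Elavl2* had 25.9% ± 30.9 and *Elavl4* 17.7% ± 14.5, with 86.7% and 45.5% in WT mouse 1, the highest mouse for both. Their lowest mice, with 4.53% and 5.26%, lay inside the marker range, so these 2 genes were not set apart from it. In BG the markers stood at 11.4% to 34.5%, with *Ralyl* (7.57%), *Rbfox3* (11.1%), *Celf4* (15.2%) and *Elavl4* (25.3%) in or under the range, while *Rbfox1* was at 36.7%, *Celf2* at 90.5% and *Nova1* at 104%. In VAs, with 18.2% to 43.4%, and in OLs, with 15.3% to 42.3%, *Ralyl*, *Rbfox1*, *Rbfox3* and *Celf4* were in or under the range, and so were *Elavl4* in VAs and *Celf2* in OLs. As a percent of its granule neuron level *Ralyl* in the glial labels, with 7.57% to 15.0%, was therefore no higher than the granule neuron markers there. Its CPM in these labels, 315 to 669, was above that of each of the 4 markers. *Ralyl* was also in or under the range in *Sln*, in *Dcn-Nnat* and in all 5 interneuron labels, *Rbfox3* in all of these but *Chrm2*, and *Rbfox1* in *Nefh*, *Rab3b*, *Cadm1*, *Sln* and *Dcn-Nnat*. The *Sln* range runs up to 181%, set by *Slc17a7*. In the *Nrgn* label no member lay within the marker range, 5.69% to 18.0%.

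**Figure D4:**
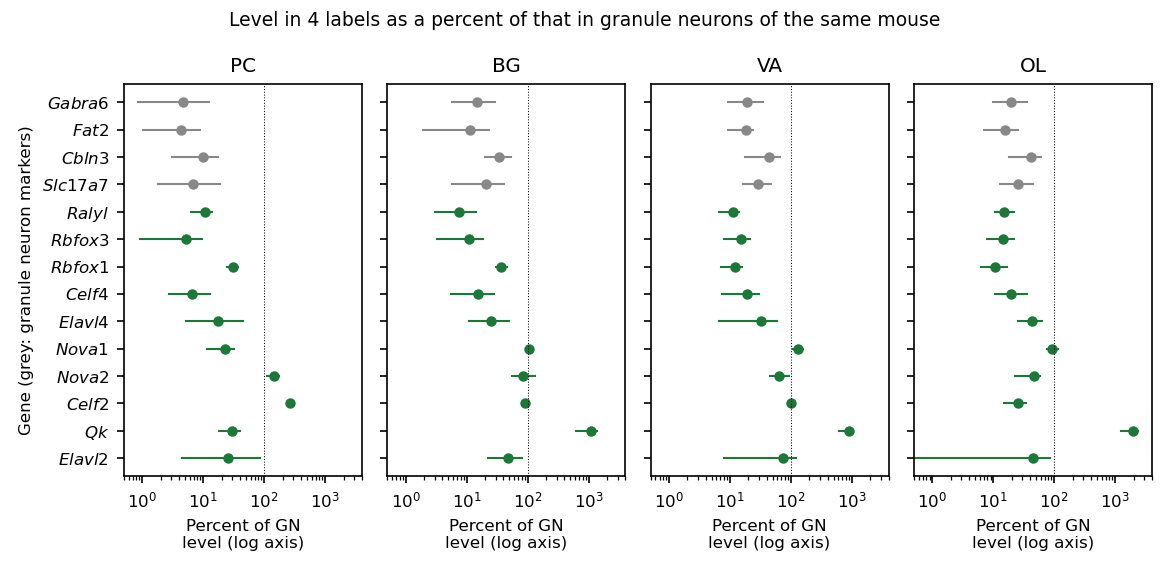
Level of each member (coloured) and of 4 granule neuron markers (grey) in PCs, BG, VAs and OLs as a percent of the same gene's granule neuron level in the same mouse (log axis), with points at the mean of 6 mice and lines from the lowest to the highest mouse. The dotted line is at 100%, and the lower end for *Elavl2* in OLs, 0 in 1 mouse, is off the axis. The means of *Celf2* and *Nova2* in PCs and of *Qk* in all 3 glial labels lie above 100%. So do those of *Nova1* in VAs (129%) and BG (104%) and of *Celf2* in VAs (102%). *Ralyl* and *Rbfox3* lie at or near the granule neuron markers throughout.

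Across the 13 labels the profile of *Rbfox3* was the most like that of *Ralyl* among the members, with a Pearson correlation of log2 mean CPM of 0.89. *Celf4* and *Elavl4* had 0.83, *Elavl2* and *Elavl4* 0.81, and *Celf2* and *Qk* -0.57. Among 13706 genes with at least 10 CPM in a label, the 5 closest to *Ralyl* were *Mctp1* (0.916), *Gm27016* (0.895), *Kcnk9* (0.894), *Kcnd2* (0.892) and *Neurl1a* (0.892). *Kcnk9* and *Kcnd2* encode potassium channels, and *Mctp1* a calcium-binding membrane protein. These correlations are a description of 13 points that share 6 libraries and free granule neuron RNA, and no p-value is attached.

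The second comparison was SCA1 against WT within each label, by an edgeR quasi-likelihood fit with genotype and batch as terms and p-values adjusted over all genes tested in the label. The batch was read from the library numbers, which set the first mouse of each genotype (batch 1) apart from the other 4 (batch 2). Of 126 tests of a member in a label none passed (DESeq2 also called 0), with an unadjusted p under 0.05 in 6, or 4.76%, against 1.87% of the 128055 tests over all genes. The share of all genes called was 0.00566% in granule neurons, 0.00917% in OLs and 0.0% in each of the other 11 labels, so calls were rare for any gene. Another 4 tests were not made for low counts, those of *Elavl2* in PCs and of *Elavl2*, *Elavl4* and *Nova2* in *Dcn-Nnat*. In granule neurons the 10 log2 changes ran from -0.32 to 0.18, in BG from -0.55 to 0.31, in VAs from -0.48 to 0.42 and in OLs from -0.30 to 0.35. In PCs the 9 tested ran from -1.12 to 0.60 with a median of -0.09, against a median of 0.02 over all genes. By sign alone *Ralyl* was above 0 in 12 of 13 labels, *Qk* above 0 in 11 and *Rbfox3* below 0 in 10, but these labels share libraries and the changes are not independent of each other. Of the 41 other genes for RNA-binding proteins 32 to 40 were tested in a label, and none of those tested was called.

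In 4 of the 126 tests, or 3.17%, the SCA1 and WT mice did not overlap, while over all genes the share without overlap in either direction was from 3.19% in granule neurons to 10.2% in PCs. These were *Ralyl* in PCs (higher, as were 4.98% of all genes there), *Nova1* in *Cadm1* (higher, as were 2.76%), *Qk* in *Cadm1* (lower, as were 2.65%) and *Rbfox3* in *Sln* (lower, as were 3.17%). *Nova1* in *Cadm1* had 141, 126 and 130 CPM in SCA1 and 117, 114 and 106 CPM in WT mice, a log2 change of 0.24 ± 0.22 (adjusted p = 1.00). *Qk* in *Cadm1* had 163, 192 and 197 CPM in SCA1 and 207, 202 and 204 CPM in WT mice, a change of -0.16 ± 0.21 (adjusted p = 1.00). Both were smaller than or close to their SE. *Rbfox3* in *Sln* had 244, 175 and 140 CPM in SCA1 and 381, 296 and 309 CPM in WT mice, a change of -0.85 ± 0.25 (adjusted p = 0.998), and was picked out after its values were seen. Of the 6 tests with an unadjusted p under 0.05, 3 were of *Ralyl*, in PCs, *Rab3b* and *Cadm1*, and 1 was this one. The other 2, also named for their values, were of *Rbfox1*. In *Sln* it had 344, 77.6 and 16.5 CPM in SCA1 and 891, 42.2 and 781 CPM in WT mice, which overlapped, and its change of -2.39 ± 0.73 (adjusted p = 0.998) was the largest of any member, from -3.48 to -1.11 with 1 mouse left out. Without the filter on low counts it passed (adjusted p = 1.92e-06), among 2 of 16632 genes called. In *Cadm1* it had 1686, 435 and 1218 CPM in SCA1 and 911, 460 and 405 CPM in WT mice, which overlapped, a change of 0.92 ± 0.33 (adjusted p = 1.00). Among *Cadm1* nuclei with at most 300 CPM of granule neuron markers, a limit described below, the change was 0.18 ± 0.22.

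*Ralyl* was the member whose PC level separated the genotypes. The SCA1 mice had 505, 635 and 587 CPM and the WT mice 427, 248 and 466 CPM. All 3 SCA1 mice lay above all 3 WT mice, the second WT mouse being the lowest of all. The log2 change was 0.60 ± 0.26 (adjusted p = 0.732), which did not pass. Changes of *Ralyl* of about this size were seen in *Rab3b* (0.62 ± 0.26, adjusted p = 1.00) and *Chrm2* (0.54 ± 0.35, adjusted p = 1.00), where the genotypes overlapped, and were picked out by their values. With 1 mouse left out they ran from 0.45 to 0.96 and from 0.17 to 0.85, and the batch 1 pair gave 0.01 and -0.01. In PCs the change was 0.24 between the mice of batch 1, with 1 pair, and 0.84 in batch 2. Leaving out each mouse in turn moved the change from 0.32 to 0.82 with adjusted p from 0.513 to 0.999. The summed level of the 6 PC markers did not overlap either, with 10310 to 14694 CPM in SCA1 and 14770 to 21622 CPM in WT mice. *Itpr1* held most of this sum, with a mean of 10548 CPM over 6 mice, and the markers were not compared singly. Their part in the result was not tested. The summed level of the 5 granule neuron markers in PCs overlapped, with 164, 108 and 31.5 CPM in SCA1 and 275, 32.4 and 139 CPM in WT mice.

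Per nucleus the separation was wider. The median *Ralyl* level over the PC nuclei of a mouse was 497, 350 and 529 CPM in SCA1 and 230, 125 and 133 CPM in WT mice. The means of these medians were 459 ± 95.5 and 163 ± 58.6 CPM (SD, n = 3 each). An exact permutation test, two-sided, gave p = 0.1, and 3 mice against 3 cannot give less. The share of PC nuclei with at least 1 *Ralyl* UMI, 100%, 78.8% and 96.6% against 100%, 75.6% and 62.1%, overlapped, but the median depth of PC nuclei differed between mice, from 16186 to 58288 UMIs. With each nucleus thinned to 3000 UMIs, which left out 2 SCA1 and 10 WT nuclei, the share was 75.9%, 62.0% and 69.1% in SCA1 and 50.8%, 37.3% and 37.1% in WT mice (exact permutation p = 0.1). At this depth the granule neuron marker *Gabra6*, which PCs should lack, had a share of 11.2%, 18.0% and 1.77% against 19.9%, 2.65% and 5.90%. The genotypes overlapped for *Gabra6* and did not for *Ralyl*. The *Gabra6* share is no floor for *Ralyl*, which has more UMIs than *Gabra6* in granule neurons. *Nova2* was the other member whose thinned shares did not overlap, 18.6%, 14.1% and 19.7% against 12.7%, 12.5% and 12.6% (exact permutation p = 0.1), and 8.57% of 11819 genes were higher in SCA1 without overlap in the same way.

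PC nuclei with many UMIs of granule neuron markers also held more *Ralyl*, and the fit was repeated on PC nuclei with at most 300 CPM of *Gabra6*, *Fat2*, *Cbln3* and *Slc17a7* together. This alternative, and a limit of 100 CPM, were chosen after the data had been seen and after several limits had been tried on *Ralyl*. The adjusted p-values under these limits correct over genes and not over the limits tried, so no conclusion on *Ralyl* is drawn from them. The nuclei above 300 CPM were 15 of 146 in SCA1 and 24 of 146 in WT mice, and their *Ralyl* level before TMM scaling was 1289 and 1535 CPM in SCA1 mice 1 and 2 (mouse 3 had none) and 1726, 2492 and 2648 CPM in the WT mice. In the nuclei kept, *Ralyl* was at 457, 579 and 574 CPM in SCA1 and 238, 196 and 225 CPM in WT mice. Every SCA1 mouse was then well above every WT mouse, and the log2 change was 1.28 ± 0.21 (adjusted p = 0.0392), where 0.252% of all genes were called, 0.063% as higher. At 100 CPM, with 90 nuclei kept in each genotype, the levels were 434, 541 and 563 CPM against 209, 191 and 173 CPM, and the change was 1.42 ± 0.21 (adjusted p = 0.0166), with 0.362% of genes called, 0.164% as higher. DESeq2 gave 1.26 at 300 CPM and called it (adjusted p = 1.75e-05), along with 3.9% of genes, 105 of the 2694 to which it gave an adjusted p. The call did not hold at 300 CPM with any 1 mouse left out, the change being 1.17 to 1.47 with adjusted p from 0.0588 to 0.301. At 100 CPM the change was then 1.32 to 1.6 and was called in 3 of the 6 cases, and lost without SCA1 mouse 1, WT mouse 1 or WT mouse 2. No other member was called or free of overlap under either limit. As a percent of the granule neuron level of the same mouse, *Ralyl* in the nuclei kept at 300 CPM was at 13.6%, 12.9% and 9.01% in SCA1 and 6.91%, 4.55% and 3.45% in WT mice, while the 4 markers together were at 7.66%, 2.76% and 1.36% against 7.43%, 0.79% and 1.41%. *Ralyl* in the first WT mouse was thus under the marker level.

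**Figure D5:**
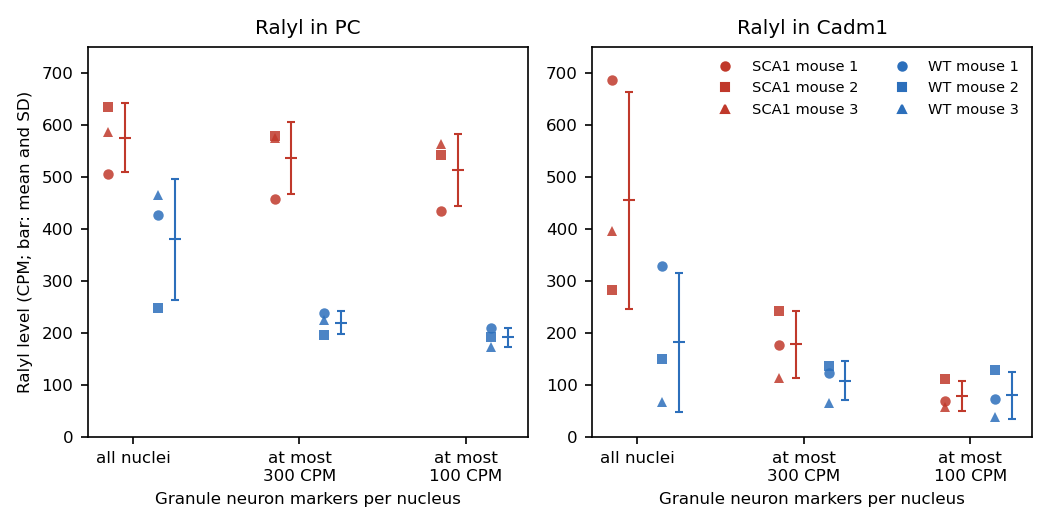
Level of *Ralyl* in PC and in *Cadm1* nuclei of SCA1 and WT mice, for all nuclei and for those with at most 300 and at most 100 CPM of 4 granule neuron markers, with a point per mouse and bars for mean ± SD (n = 3). In PCs the WT mice fall to 173 to 209 CPM at the strictest limit while the SCA1 mice stay at 434 to 563 CPM, and in *Cadm1* the genotypes overlap over all nuclei and at 300 CPM. The *Cadm1* points at 100 CPM include mice with 6 and 3 nuclei and are shown without being compared. Both limits were set after values of *Ralyl* had been seen.

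*Ralyl* in the *Cadm1* label is named because of its values, and its change was not tested against that in PCs. Over all its nuclei the SCA1 mice had 687, 282 and 396 CPM and the WT mice 329, 150 and 66.2 CPM. The second SCA1 mouse lay below the first WT mouse, so the groups overlapped. The log2 change of 1.43 ± 0.30 was the largest of *Ralyl* in any label but did not pass (adjusted p = 1.00, and from 0.0571 to 1.00 with 1 mouse left out). Without the filter on low counts it passed (adjusted p = 0.0011), among 17 of 18884 genes called. With the replicate number as a block, where every same-numbered pair of this label deviated together, it was 1.41 ± 0.22 and passed (adjusted p = 0.0257, 0.0411% of genes called). The granule neuron markers overlapped here, with 556, 144 and 219 CPM in SCA1 and 515, 186 and 84.7 CPM in WT mice. When nuclei above 300 CPM of granule neuron markers were left out, which kept 115 of 155 SCA1 and 92 of 134 WT nuclei, the change was 0.75 ± 0.35 (adjusted p = 1.00). At 100 CPM SCA1 mouse 1 and WT mouse 1 kept 6 and 3 nuclei, under the minimum of 10, so nothing is read from *Cadm1* at that limit. *Ralyl* in *Cadm1* was at 7.63% ± 6.26 of its granule neuron level, under the 10.0% to 25.4% of the granule neuron markers there.

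*Qk* in VAs was in the rule for named genes whatever its change. The SCA1 mice had 1455, 1585 and 1908 CPM and the WT mice 1057, 1529 and 2033 CPM, in overlapping groups, and the log2 change was 0.14 ± 0.29 (adjusted p = 1.00). The first mouse of each genotype, the batch 1 pair, was the lowest of its group, and without SCA1 mouse 1 or WT mouse 1 the change was -0.02 or -0.03. *Rbfox3* in PCs had the lowest log2 change in that label, -1.12 (-1.65 to -0.31 with 1 mouse left out). As a percent of its granule neuron level it lay within the range of the granule neuron markers there. Its levels were 62.1, 50.5 and 11.7 CPM in SCA1 and 113, 22.1 and 121 CPM in WT mice. These groups overlapped (adjusted p = 0.814, or 0.00915 without the filter on low counts, where 1.04% of genes were called), and among nuclei of at most 300 CPM of granule neuron markers the change was 0.05.

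Whether a member changed more in another label than in the granule neuron label was asked by the interaction of genotype and label, for PCs, BG, VAs and OLs. No member was called in any of the 4 fits, in which 0.0% of all genes were called. By unadjusted p under 0.05 there was 1, *Elavl2* in PCs (-2.02 ± 0.74), where 745 of 16043 genes were under 0.05. *Elavl2* has very few UMIs in PCs, and its interaction was -1.90 and 0.23 at the limits of 300 and 100 CPM on granule neuron markers. For *Ralyl* in PCs the interaction was 0.41 ± 0.31 (adjusted p = 1.00). Among PC nuclei of at most 300 CPM and of at most 100 CPM of granule neuron markers it was 1.09 (adjusted p = 0.680) and 1.21 (adjusted p = 0.431), with 0.0% and 0.0193% of all genes called. The change of *Ralyl* in PCs was therefore not shown to differ from that in granule neurons.

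Within the SCA1 mice, 10, 10 and 11 PC nuclei held a UMI of human *ATXN1* and 55, 42 and 18 held none. Nuclei with a UMI were deeper, most of all in mouse 2, with a median of 34274.5 against 7287.5 UMIs. *Ralyl* had 453, 920 and 669 CPM in nuclei with the transgene UMI and 572, 575 and 606 CPM in those without, lower in mouse 1 and higher in the other 2 mice, with a log2 difference of 0.17 ± 0.17 (adjusted p = 0.836). Of the 8 members tested 0 were called by edgeR with the mouse as a term, while 1.47% of all genes were. By unadjusted p under 0.05 there were 3 of 8 members and 796 of 7818 genes. The 3 members were *Nova1* (-1.06 ± 0.34, adjusted p = 0.154), *Rbfox3* (-0.74 ± 0.30, adjusted p = 0.342) and *Qk* (-0.52 ± 0.25, adjusted p = 0.483). *Nova1* had 23.4, 14.2 and 20.4 CPM with the UMI and 41.2, 67.6 and 27.7 CPM without it, lower in 3 of 3 mice.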

How the data were processed

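Single-nucleus RNA-seq (10x Genomics) was read from tables of UMI counts per gene and nucleus, which the authors made with Cell Ranger (4.0.0, 5.0.1 and 6.0.1 are named for the series) on GRCm38 with human *ATXN1* added, filtered with DIEM at a minimum of 1000 UMIs (3000 in the first run), and deposited with a SingleR cell type label per nucleus, made in R 4.1.0 with Seurat 4.0.4. The counts are raw. How reads shared by overlapping genes were counted is not given in the sources used here, and *Rbfox1*, *Rbfox3* and *Celf2* overlap other genes on their strand.

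Deposited counts were summed per mouse and label, for labels of at least 10 nuclei in each of 6 mice, whatever the cluster of the nucleus (label and cluster majority were the same in 43541 nuclei). Doublets were not called here. The 1 library per mouse makes the mouse the replicate. edgeR 4.0.16 in R 4.3.3 (TMM, filterByExpr with a minimum count of 10 and total of 15, quasi-likelihood test, Benjamini-Hochberg over all genes) fitted SCA1 against WT with batch, label against granule neurons with mouse, the interaction, and transgene UMI against none with mouse. Batch was inferred from library numbers: SCA1 1 and WT 1, with a minimum of 3890 and 3932 UMIs per nucleus, form batch 1, and the other 4, from 1000 UMIs up, batch 2. A call is an adjusted p of at most 0.05. Alternatives were RLE factors, library size only, no filter, DESeq2 1.42.0, no batch, a replicate block, nuclei whose label matches their cluster, nuclei of at least 3000 UMIs, and each mouse left out. Limits on granule neuron markers were added after the data were seen.

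Same-numbered mice had correlated deviations from their group means, each pair over 0.1, in 8 labels (0.115 to 0.925). In the other 5 not every pair was over 0.1 (lowest 0.0127). PCs were among these 5, with 0.689, 0.087 and 0.528 for pairs 1 to 3. *Cadm1* was among the 8, with 0.534, 0.119 and 0.445.

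All 10 genes are named. A fold change is given for *Ralyl* in PCs, *Qk* in VAs, and each member called or without overlap in granule neuron, PC, glial or interneuron labels. Others picked by their values are said to be so. The genes, lists and rules were chosen with earlier results of these data known. On simulated counts with 200 genes changed by 1.5 on the log2 scale, 83.5% of the changed genes were called in PCs, 93.1% in granule neurons, 80.2% in *Cadm1* and 21.5% in the PC interaction. Those counts gave every gene the same dispersion and held no other differences between mice or batches than library size. The shares are thus not the power of the tests here, and 1.5 is larger than the 0.60 of *Ralyl* in PCs. Figures used Python 3.11.15 and matplotlib 3.10.9.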

Additional observations from a re-analysis of the deposited data

How the results depend on the processing

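Over the planned and added settings, 348 summary values stayed within 1.5 times and 17 did not, and of the values for a single gene 543 kept their direction and side of the threshold, 15 passed it newly, 3 no longer did and 9 reversed. Counts of members called as changed in SCA1, 0 in the text, were 1 without the filter on low counts in PCs (*Rbfox3*, among 223 of 21377 genes), *Cadm1* (*Ralyl*, among 17 of 18884) and *Sln* (*Rbfox1*, among 2 of 16632), 1 with the replicate block in *Cadm1* (*Ralyl*), and 1 in PCs (*Ralyl*) with the limits of 300 and 100 CPM on granule neuron markers, alone, with the replicate block (which called 4.35% of all genes at 300 CPM and 4.85% at 100 CPM) or with DESeq2. With 1 mouse left out at 100 CPM the count was 0 to 1. The replicate block changed no other call of a member. In PCs same-numbered mice correlated in pairs 1 and 3 (0.689 and 0.528) and little in pair 2 (0.087). There the block gave 0.62 for *Ralyl* over all nuclei (adjusted p = 0.186) and 172 calls over all genes against 0. All-gene calls in PCs were also 66 by DESeq2 and 223 without the filter, and in granule neurons 14, 2 and 6 by DESeq2, without the filter and with the block against 1. With scaling by library size alone, PCs had 2427 genes higher and 7259 lower than granule neurons, against 3993 and 4387. Members called in *Sln* against granule neurons, 8 in the text, ranged from 5 (WT mouse 3) to 8 with 1 mouse left out. The highest label stayed in place for 4 of 10 members both when the label had to match the cluster and by mean UMIs per nucleus, where *Ralyl* was highest in *Nrgn* and *Rbfox1* in *Lgi2*. Under the match to the cluster 7 labels had enough nuclei in every mouse, and *Lgi2*, *Chrm2*, *Rab3b*, *Nrgn*, *Sln* and *Dcn-Nnat* were not ranked. Members with no overlap in thinned PC shares were 2. Directions reversed, with no value called, for *Qk* in VAs without SCA1 mouse 1 (-0.0243) or WT mouse 1 (-0.0254; up to 0.308 with another mouse left out), for *Celf2* against granule neurons in BG (0.0548 with RLE factors, 0.0540 with DESeq2) and in VAs (0.141 with RLE factors, 0.0322 with library size only, 0.137 with DESeq2), for *Nova1* in BG without the filter (-0.0237), and for *Ralyl* in *Cadm1* at 100 CPM (-0.0198, SE 0.481, with 6 and 3 nuclei in the batch 1 mice). Outside these 9, other values in PCs turned under the limits on granule neuron markers, none of them called. *Rbfox3* in PCs went from -1.12 to 0.05 at 300 CPM and 0.34 at 100 CPM. *Celf4* in PCs went from -0.58 to 0.36 and 0.06, and *Elavl4* from -0.52 to -0.38 and 0.43. The interaction in PCs turned for *Elavl2*, from -2.02 to 0.23 at 100 CPM, and for *Elavl4*, from -0.68 to 0.33 at 100 CPM. It also turned at both limits for *Rbfox3* (-0.76 to 0.28 and 0.49), *Celf4* (-0.41 to 0.39 and 0.09) and *Nova1* (-0.14 to 0.15 and 0.08). The cause was not tested. Depth limits *Elavl2* in PCs and OLs, where single mice had 1 or 0 UMIs, and 29 PC nuclei per mouse limit the third mice.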

Other observations

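Of the 431 nuclei in the 11 labels with too few nuclei per mouse, the largest labels were microglia (125), endothelial stalk (89) and choroid plexus (83), and their UMIs were pooled over the mice, so no spread can be given. *Celf2* and *Qk* led the microglia with 1022 and 1418 CPM, and 92.8% and 95.2% of these nuclei held at least 1 UMI. In the same nuclei *Ralyl* had 241 CPM and *Rbfox3* 136 CPM, with a UMI in 36% of nuclei each. *Qk* was at 560 CPM in choroid plexus and at 667 CPM in endothelial stalk nuclei. The endothelial stalk label also held 2309 CPM of *Rbfox1*. Granule neuron markers were not set beside the members in these pooled labels, so the part of free granule neuron RNA in these levels was not tested.

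UMIs of human *ATXN1* occurred outside PC nuclei in every library, the WT ones included, and their source was not tested.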
